A study of Homo sapiens with 4 samples.

Results

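The Hedgehog pathway genes described here are 7 genes, GLI1, GLI2, GLI3, PTCH1, SMO, SUFU and HHIP, chosen by name as the core of the pathway from receptor to transcription factor. They were found by their NCBI Gene identifiers among the 23459 genes listed for every library, and all 7 passed the CPM filter of the study (a CPM above 1 in at least 2 libraries), as did 12559 genes in all. The cells were wild-type hTERT RPE-1, a non-cancerous human line from retinal pigment epithelium immortalized with telomerase, held for 48 h in medium with 0.1% FBS and then given 200 μM merbarone, a catalytic inhibitor of TOP2. RNA-Seq was done on 2 replicates treated for 4 h and 2 replicates treated for 8 h. Starvation, dose and genotype were the same in both groups, and time was the label that differed. Untreated cells were not analysed here. Every comparison sets 8 h against 4 h, and time under the drug cannot be told apart from time in low serum.

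Hedgehog ligands bind PTCH1, a membrane protein that otherwise keeps SMO, a receptor-like protein of the primary cilium, inactive. Active SMO releases the GLI transcription factors from SUFU, which holds them in the cytoplasm. GLI2 is known mainly as the activator and GLI3 mainly as the source of a shortened repressor, while GLI1, PTCH1 and HHIP, a decoy that binds the ligands, are targets of the pathway and report its output in many tissues. Vertebrate Hedgehog signalling runs through the primary cilium, which RPE-1 cells form when serum is withdrawn.

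The GLI proteins bind a 9-base site, GACCACCCA, which is shown first because PTCH1, the classical target, carries it. RefSeq promoter windows (GRCh38.p14) were available for 5 of the 7 genes, 10 windows in all, and the 250 bases before each start were searched on both strands. GLI1 and GLI3 had no window and were not searched, and 5 of the 10 windows were of PTCH1. The site was in 1 of these 10 windows, at a start of PTCH1 on chr9:95509267-95509516, minus strand, inside the span of the whole gene (95442980 to 95516971). It begins 172 bases before the start, in the reverse orientation, and is in capitals here.
PTCH1: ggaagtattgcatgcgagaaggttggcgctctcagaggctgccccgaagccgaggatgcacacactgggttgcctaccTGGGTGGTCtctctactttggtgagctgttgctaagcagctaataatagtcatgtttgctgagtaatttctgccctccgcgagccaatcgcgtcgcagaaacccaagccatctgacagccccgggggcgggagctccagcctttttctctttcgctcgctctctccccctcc
Of all 35116 promoter windows of that length, 70 (0.199%) held these letters. The HHIP window held no such letters but a cAMP response element, TGACGTCA, which is the same on both strands and was in 1.65% of all windows. It is shown because its name refers to cAMP. PKA, the cAMP-dependent kinase, acts on the GLI proteins themselves, and a link of that to this element was not tested. The element begins 75 bases before the start on chr4:144645906-144646155, plus strand.
HHIP: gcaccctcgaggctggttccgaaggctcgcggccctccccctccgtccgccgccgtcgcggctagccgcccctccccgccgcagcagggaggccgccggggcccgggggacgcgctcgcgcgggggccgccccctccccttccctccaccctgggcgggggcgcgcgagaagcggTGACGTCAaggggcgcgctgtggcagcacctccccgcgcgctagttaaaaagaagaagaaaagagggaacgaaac
The PTCH1 window shown held no cAMP response element, so the motifs were in different windows. Other motifs (CCAAT box, E2F sites and GC box) were searched as well and are not marked. A CCAAT box was in a window of GLI2, in the PTCH1 window shown and in that of SUFU. A GC box was in a window of GLI2, in another window of PTCH1 and in that of SUFU. Of all windows, 32.0% held a CCAAT box and 15.1% a GC box. E2F sites were in none of the 10 windows. A match of letters describes the sequence and does not show binding in these cells.

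Depth ranged from 8064450 to 10324697 counts per library, and the 7 genes together held between 0.0117% and 0.0155% of them (1071 to 1582 reads). In the check of the cell type, MITF and OTX2, transcription factors of the pigment epithelium, were present (75.5 to 92.5 and 15.9 to 20.6 CPM), while the visual cycle and pigment genes RPE65, BEST1, RLBP1 and LRAT had between 0 and 7 reads in a library, PMEL had 7 to 12 and TYR had 0 in all. Markers of other cell types summed to at most 1.39 CPM for leukocytes, 0.518 for endothelium and 0.0946 for photoreceptors. Of the epithelial keratins, KRT8 had 348.0 to 394.0 CPM over all libraries (log2FC 0.03, edgeR adjusted p = 0.798), and KRT18 was lower at 8 h (247.0 ± 3.55 CPM against 351.0 ± 22.5 CPM at 4 h, SD, n = 2 each, log2FC −0.51, edgeR adjusted p = 3.72e-05). The part of this in the results was not tested. All CPM values given here include TMM factors.

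The 7 genes spanned a wide range of expression. Levels were compared between genes as TMM-normalized reads by length of the canonical transcript (RPKM). SMO was at 8.88 ± 0.482 RPKM at 4 h and 8.27 ± 0.469 at 8 h (SD, n = 2 each), SUFU at 7.45 ± 0.451 and 6.48 ± 0.262, and HHIP at 3.80 ± 0.509 and 3.75 ± 0.598. GLI3 followed at 2.32 ± 0.150 and 1.52 ± 0.376, GLI2 at 1.08 ± 0.269 and 1.19 ± 0.0593, PTCH1 at 0.380 ± 0.0642 and 0.517 ± 0.0533, and GLI1 at 0.355 ± 0.0644 and 0.387 ± 0.0531. By this measure, the transducers SMO and SUFU were the most abundant of the 7 transcripts, and PTCH1 and GLI1 the least abundant. Over the 4 libraries, the values of GLI3 and GLI2 overlapped (1.26 to 2.43 against 0.892 to 1.27), as did those of PTCH1 and GLI1, and the other neighbours in this order did not. With the length of all annotated exons in place of the canonical transcript, a choice made after seeing the data, PTCH1 ranked below GLI1 (0.191 against 0.309 RPKM at 4 h, and 0.259 against 0.337 at 8 h). On that length GLI3 was at 1.41 RPKM at 4 h and 0.927 at 8 h, where it ranked below GLI2 (1.10). SMO, SUFU and HHIP held the first 3 ranks on both lengths and at both times. The place of HHIP below SMO and SUFU depends on length. In CPM, HHIP had a mean of 37.7 at 4 h and 37.3 at 8 h. SMO had 35.3 and 32.9, and SUFU 37.4 and 32.5. The annotation used in counting is not given, so either length is an assumption.

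**Figure D1:**
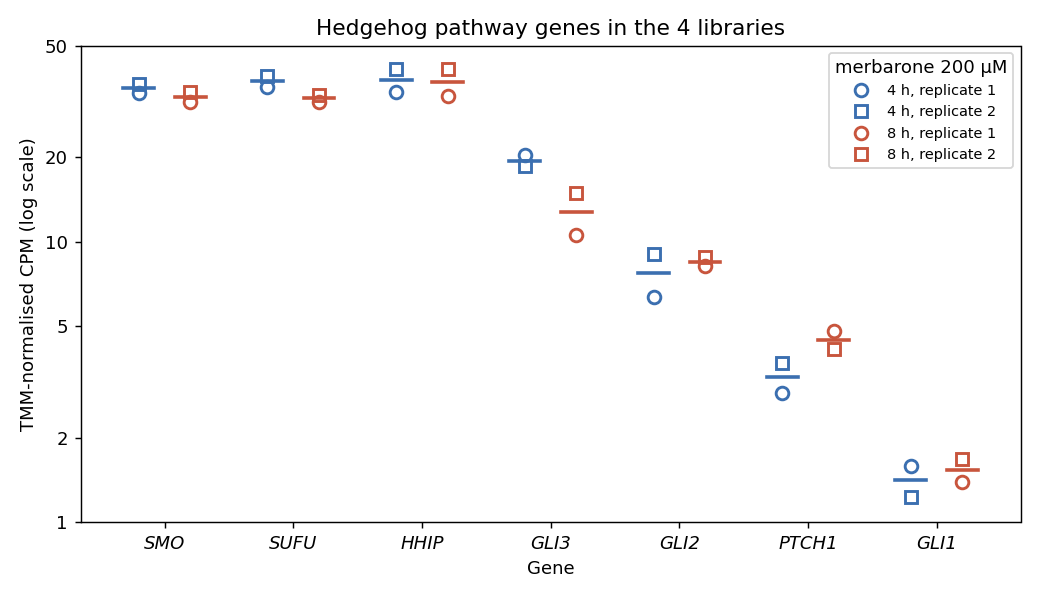
TMM-normalised CPM on a log axis for each of the 7 genes, with circles for replicate 1, squares for replicate 2, blue for 4 h, red for 8 h and a bar at each mean of 2 libraries. GLI3 lies lower in both 8 h libraries (10.6 and 15.0) than in both 4 h libraries (20.4 and 18.6), while for SMO, HHIP, GLI2 and GLI1 the times overlap.

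From 4 h to 8 h, 1 of the 7 genes passed the test. GLI3 fell by 35.0% (edgeR adjusted p = 0.00906), and the other 6 had adjusted p-values from 0.177 to 0.899 in edgeR. Over all genes tested, 18.8% were lower and 19.9% higher at 8 h at an adjusted p below 0.05, so 1 of 7 lower (14.3%) is near the share over all genes. The count of higher genes was 0 in edgeR, Limma-Voom and DESeq2, also at an unadjusted p below 0.05. By any of these tools, none of the 7 reached the study's fold-change threshold, an absolute log2FC above 1 beside the p, adjusted or not. Over all genes, 5.33% did in edgeR with the adjusted p. The median log2FC of the 7 was −0.02, against 0.00 for all genes. These are measures of the whole culture, in which fewer cells with a transcript and less of it per cell cannot be told apart. With 2 libraries per time an exact permutation test cannot give a p below 0.33, so the tests rest on the spread that edgeR shares across genes.

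**Figure D2:**
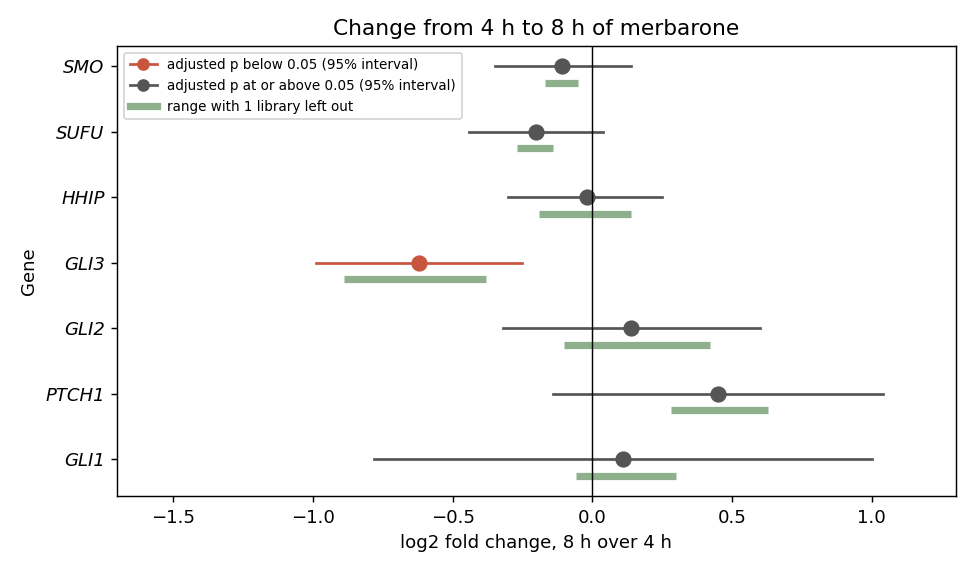
log2 fold change of 8 h over 4 h for each of the 7 genes (points) with the 95% interval of the edgeR fit (thin lines) and, in green, the range of the fold change when each library was left out in turn. The interval of GLI3 (−0.99 to −0.25) lies below 0, and those of the other 6 genes include 0.

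GLI3 (chromosome 7, 42000547 to 42303699, minus strand, hg19; 15 exons in the canonical transcript) encodes the GLI protein that is cut into a repressor when the pathway is silent. Its reads numbered 218 and 197 at 4 h and dropped to 99 and 116 at 8 h, which is 20.4 and 18.6 CPM against 10.6 and 15.0 CPM. Both 8 h libraries were below both 4 h libraries, but the 8 h replicates were further apart (SD 3.16) than the 4 h replicates (SD 1.26). The log2FC was −0.62 (standard error 0.18, edgeR adjusted p = 0.00906), which placed the gene at percentile 11.1 of the fold changes of all genes tested. The gene stayed past the threshold in every other test, scaling, filter and correction tried, with adjusted p-values from 0.000778 to 0.045 (edgeR, Limma-Voom and DESeq2). The call was lost without replicate 1 at 4 h (log2FC −0.56, edgeR adjusted p = 0.0894) and without replicate 1 at 8 h (log2FC −0.38, edgeR adjusted p = 0.115). It was kept without replicate 2 at either time, at −0.68 for 4 h (edgeR adjusted p = 0.0379) and −0.89 for 8 h (edgeR adjusted p = 0.000179).

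GLI3 belongs to the second of 5 groups of equal size by abundance, in which 23.4% of the genes were lower at 8 h. The median log2FC of that group was −0.11. With offsets that removed the dependence of each library on abundance, the log2FC of GLI3 was −0.52 (edgeR adjusted p = 0.0277).

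**Figure D3:**
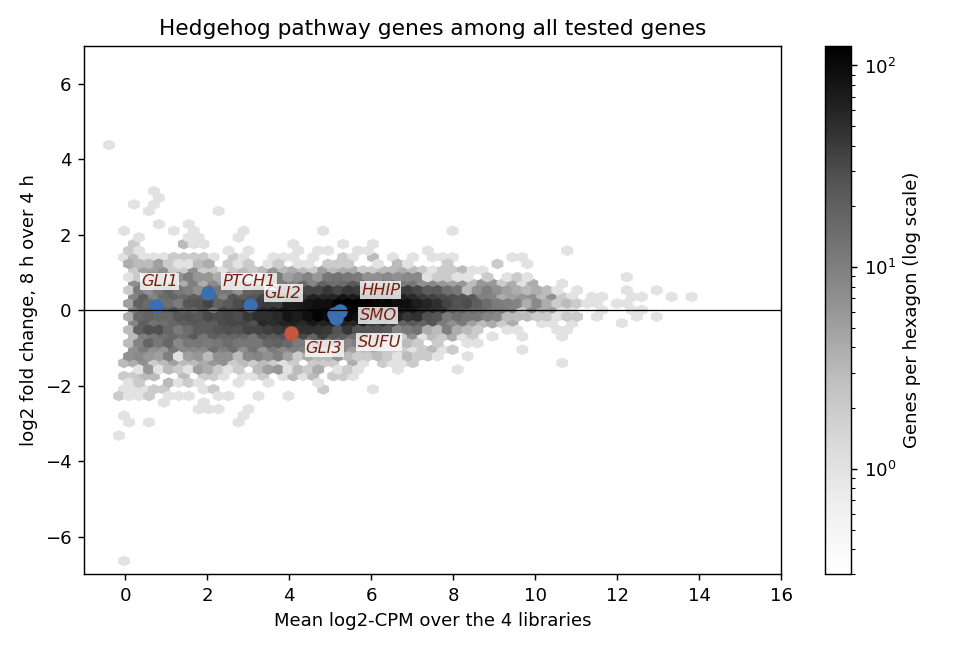
log2 fold change of 8 h over 4 h against mean log2-CPM for all 12559 genes tested (grey hexagons, darker with more genes) with the 7 Hedgehog pathway genes as points, red for an adjusted p below 0.05 and blue otherwise. GLI3 lies at −0.62, towards the lower side of genes of its abundance, while SMO, SUFU and HHIP lie at −0.11, −0.20 and −0.02 near the centre of the cloud.

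GLI2 (chromosome 2, 121493199 to 121750229, plus strand, hg19), the main activator, had 68 and 96 reads at 4 h and 77 and 68 at 8 h, or 6.37 and 9.08 CPM against 8.21 and 8.81 CPM. The times overlapped, and the 4 h replicates lay on either side of both 8 h libraries. Its log2FC was 0.14, with a 95% interval from −0.32 to 0.60 (edgeR adjusted p = 0.65). GLI1 (chromosome 12, 57853568 to 57866051, plus strand, hg19), itself a target that strengthens the response, was close to the CPM filter, with 17 and 13 reads at 4 h and 13 in each library at 8 h (1.59 and 1.23 CPM against 1.39 and 1.68 CPM). The summed reads were 30 at 4 h (exact 95% Poisson interval 20.2 to 42.8) and 26 at 8 h (17.0 to 38.1), intervals that cover counting error only. At this depth a change of GLI1 was not detectable within a 95% interval of the log2FC from −0.78 to 1.00 (log2FC 0.11, edgeR adjusted p = 0.861). The 3' end of GLI1 overlaps 5 exonic bases of ARHGAP9 on the opposite strand.

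Among the reads of the 3 GLI genes, GLI3 made up 71.9% (95% Wilson interval 66.6% to 76.7%) and 64.4% (58.9% to 69.5%) in the 4 h libraries. At 8 h its share was 52.4% (45.3% to 59.4%) and 58.9% (51.9% to 65.5%). The share of GLI2 went from 22.4% and 31.4% at 4 h to 40.7% and 34.5% at 8 h. Both 8 h libraries thus had less GLI3 and more GLI2 among these reads, although the intervals of replicate 2 at 4 h overlap those of both 8 h libraries for either gene. The shares are parts of the same total, so a lower share of GLI3 by itself raises the combined share of GLI2 and GLI1. GLI2 alone did not pass the test (log2FC 0.14, edgeR adjusted p = 0.65). These shares were computed after the values of the genes had been seen, and no test was made of them.

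**Figure D4:**
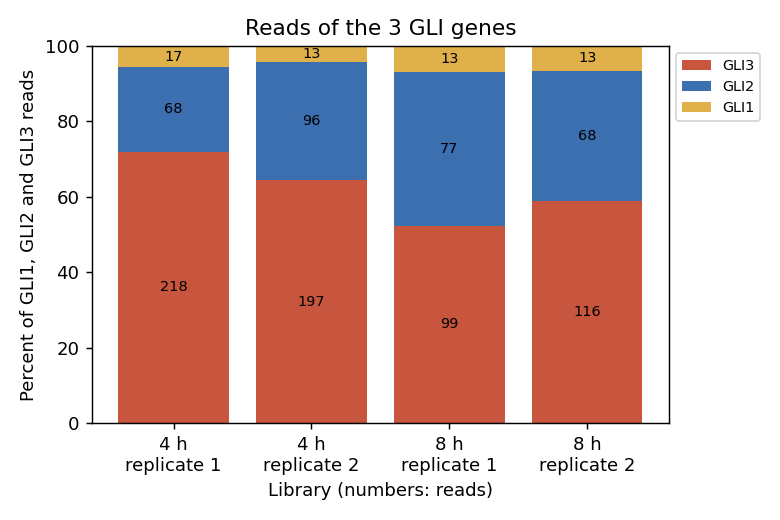
Reads of GLI3, GLI2 and GLI1 as a percentage of the reads of the 3 genes in each library, with the number of reads printed in each bar. GLI3 takes 71.9% and 64.4% at 4 h against 52.4% and 58.9% at 8 h, while GLI1 has 13 to 17 reads in every library.

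PTCH1 (chromosome 9, 98205262 to 98279339, minus strand, hg19), both receptor and target, had 31 and 39 reads at 4 h and 45 and 32 at 8 h. At 2.90 and 3.69 CPM at 4 h, against 4.80 and 4.15 CPM later, both 8 h libraries were above both 4 h libraries. The log2FC of 0.45 (standard error 0.28, 95% interval −0.14 to 1.04) did not pass the test (edgeR adjusted p = 0.221), and with 1 library left out it ran from 0.28 to 0.63. An order of this kind was common, since 34.8% of all genes had both 8 h libraries above both 4 h libraries and 34.9% had both below. PTCH1 shares 711 exonic bases with an antisense transcript on the opposite strand. The libraries were made with a stranded kit, but the use of strand in counting is not given in the sources used here. Reads of PTCH1 may therefore include some of that transcript.

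SMO (chromosome 7, 128828474 to 128853386, plus strand, hg19) had 34.0 and 36.7 CPM at 4 h and 31.6 and 34.2 CPM at 8 h (363, 388, 296 and 264 reads). The times overlapped, with a log2FC of −0.11 and a 95% interval from −0.35 to 0.14 (edgeR adjusted p = 0.503). An antisense transcript shares 129 of its exonic bases. SUFU (chromosome 10, 104263729 to 104393292, plus strand, hg19) had 35.8 and 39.0 CPM at 4 h and 31.6 and 33.4 CPM at 8 h (382, 412, 296 and 258 reads). Both 8 h libraries were below both 4 h libraries, by less than the test could separate from replicate spread (log2FC −0.20, standard error 0.12, 95% interval −0.44 to 0.04, edgeR adjusted p = 0.177). Scaling by library size alone, which moved the median log2FC of all genes to −0.11, put SUFU past the threshold (log2FC −0.31, edgeR adjusted p = 0.0409). With that scaling 2 of the 7 genes were lower, and over all genes 1698 were higher and 3289 lower, against 2500 and 2367 with TMM.

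HHIP (chromosome 4, 145567308 to 145666423, plus strand, hg19), the decoy receptor, had 365 and 437 reads at 4 h and 310 and 320 at 8 h. In CPM it was at 34.2 and 41.3 at 4 h and 33.1 and 41.5 at 8 h, so that replicate 2 was the higher one at both times and the times overlapped. Its log2FC was −0.02 with a 95% interval from −0.30 to 0.25 (edgeR adjusted p = 0.899), so a change of more than this in either direction lies outside the interval. HHIP was well expressed beside the other targets, with 3.80 RPKM at 4 h against 0.380 for PTCH1 and 0.355 for GLI1. Its 5' end shares 813 exonic bases with HHIP-AS1, an antisense RNA that is listed separately. Reads of the pair cannot be told apart there if strand was not used in counting. HHIP-AS1 had 17.0 and 18.1 CPM at 4 h and 13.9 and 12.4 CPM at 8 h (log2FC −0.41, edgeR adjusted p = 0.0519).

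The other genes of the pathway were followed in 7 lists by role, 49 genes in all, of which 40 were tested. Of these 40, 8 were higher and 9 lower at 8 h, near the shares of 19.9% and 18.8% over all genes, and their median log2FC was 0.10. With library size alone, 5 were higher and 10 lower, while over all 12559 genes tested 1698 were higher and 3289 lower. These counts moved the same way as those over all genes. The ligands had few or no reads. SHH had 0 reads in every library, which allows up to between 0.281 and 0.389 CPM (3 reads) per library. That bound holds if its reads could be counted with the annotation used, which is not given. IHH had 1, 1, 0 and 0 reads, and DHH 1, 0, 1 and 3. HHAT, which attaches palmitate to the ligands, and DISP1, which releases them, were expressed and did not pass the test (log2FC 0.15 and 0.02, edgeR adjusted p = 0.431 and 0.918), and SCUBE2, a secreted helper of release, had 3 to 6 reads.

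Of 4 other surface receptors, the co-receptors BOC and CDON were expressed at 36.3 to 43.2 CPM and 14.9 to 18.7 CPM, and GAS1 and LRP2 had at most 2 reads in a library. BOC had a log2FC of 0.05 and CDON of −0.24 (edgeR adjusted p = 0.783 and 0.244), so neither passed.

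Among 12 ciliary regulators of SMO and GLI, 11 were tested, of which 5 were lower (45.5%) and 1 higher (9.09%) at 8 h, against 18.8% and 19.9% of all genes. STK36, the vertebrate homologue of the fly Hedgehog kinase Fused, had 39.1 and 31.7 CPM at 4 h and 20.8 and 18.9 CPM at 8 h (log2FC −0.83, standard error 0.14, edgeR adjusted p = 0.000105). EFCAB7 and IQCE encode proteins that anchor the EVC complex at the base of the cilium, where it relays the signal of SMO. EFCAB7 went from 8.89 and 8.51 CPM to 4.48 and 5.57 CPM (log2FC −0.80, standard error 0.23, edgeR adjusted p = 0.00841). IQCE went from 41.6 and 48.3 CPM to 26.5 and 32.3 CPM (log2FC −0.62, standard error 0.13, edgeR adjusted p = 0.000659). EVC itself went the other way, from 225.0 and 245.0 CPM to 269.0 and 296.0 CPM (log2FC 0.26, standard error 0.08, edgeR adjusted p = 0.0135), and EVC2, its partner, was listed at 0 reads in every library. Whether reads of EVC2 could be counted with the annotation used is not given in the sources used here, so no absence is read from this 0. The call of EVC was lost with library size alone (edgeR adjusted p = 0.125), with the offsets for abundance (0.209), without replicate 1 at 4 h (0.214) and without replicate 2 at 8 h (0.0629). The call of EFCAB7 was lost in DESeq2 (adjusted p = 0.0708) and in edgeR without replicate 1 at 4 h (adjusted p = 0.063) or at 8 h (adjusted p = 0.0604). TULP3, which brings receptors into the cilium, and GPR161, a ciliary receptor that holds the pathway back through PKA, were lower as well, with log2FC of −0.36 and −0.25 (edgeR adjusted p = 0.00492 and 0.0226). TULP3 missed the threshold without replicate 2 at 4 h (edgeR adjusted p = 0.0564). GPR161 missed it in DESeq2 (adjusted p = 0.0822) and in edgeR without replicate 1 or replicate 2 at 4 h (adjusted p = 0.0552 and 0.204). The median log2FC of the 11 genes was 0.11, since 6 of them had values above 0. KIF7, the ciliary kinesin that organizes GLI at the tip of the cilium, was at 14.8 and 18.8 CPM at 4 h and 17.9 and 20.2 CPM at 8 h and did not pass (log2FC 0.18, edgeR adjusted p = 0.406).

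The kinases that mark GLI proteins for processing were listed with PRKAR1A, the gene of a regulatory subunit of PKA. These genes had 39.2 to 277.0 CPM in a library, with the highest value in PRKAR1A. Of 7 tested, 3 were higher at 8 h (42.9%, against 19.9% of all genes) and none lower (against 18.8%) in edgeR, Limma-Voom and DESeq2. None was lower at an unadjusted p below 0.05. PRKACA, PRKAR1A, CSNK1A1, CSNK1D and CSNK1E were in the most abundant of the 5 groups by abundance. In that group 39.3% of the genes were higher and 14.9% lower in edgeR, so the share of 42.9% is near that of abundant genes. CSNK1E, a casein kinase 1 gene, had 141.0 and 149.0 CPM at 4 h and 236.0 and 232.0 CPM at 8 h (log2FC 0.69, standard error 0.08, edgeR adjusted p = 1.28e-06). GSK3B (log2FC 0.45, edgeR adjusted p = 0.000441) and CSNK1A1 (log2FC 0.32, edgeR adjusted p = 0.0023) were higher too. With the offsets for abundance, CSNK1E, GSK3B and CSNK1A1 were at 0.57, 0.37 and 0.20 (edgeR adjusted p = 1.33e-05, 0.00294 and 0.0495). The PKA genes PRKACA, PRKACB and PRKAR1A were at −0.03, −0.13 and 0.09 on the log2FC scale, with edgeR adjusted p-values from 0.368 to 0.811. All 3 kinases that were higher also act in other pathways, such as Wnt signalling.

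Of the 7 genes for ubiquitin ligases and their adaptors, 2 were higher (28.6%, against 19.9% of all genes) and none lower (against 18.8%) in the same tools. None was lower at an unadjusted p below 0.05. SPOP, CUL3, CUL1, ITCH and NUMB were in the fourth of the 5 groups by abundance, and MGRN1 in the most abundant. In the fourth group 27.1% of the genes were higher and 19.5% lower in edgeR, so the share of 28.6% is near that of genes as abundant. MGRN1 encodes a ubiquitin ligase that lowers SMO at the cell surface. MGRN1 had 72.2 and 69.2 CPM at 4 h and 101.0 and 127.0 CPM at 8 h (log2FC 0.68, standard error 0.10, edgeR adjusted p = 3e-05). Both 8 h libraries were above both 4 h libraries. ITCH, a ligase for GLI1, had a log2FC of 0.33 (edgeR adjusted p = 0.00602), which missed the threshold without replicate 2 at 4 h (edgeR adjusted p = 0.0735) and with library size alone (edgeR adjusted p = 0.0532). SPOP and CUL3, which target GLI2 and GLI3 for degradation, did not pass (log2FC −0.01 and 0.20, edgeR adjusted p = 0.942 and 0.0898).

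Reported GLI targets other than the 3 above gave no single direction. Of 13 genes, 11 were tested, of which 2 were higher (18.2%, against 19.9% of all genes) and 4 lower (36.4%, against 18.8%), with a median log2FC of 0.03. CCND2, a D-type cyclin gene, rose from 1.87 and 2.27 CPM to 5.97 and 4.80 CPM (log2FC 1.38, standard error 0.30, edgeR adjusted p = 0.00112) on 20 to 56 reads. Of the 47 tested genes of the members and lists, CCND2 was the 1 called with an absolute log2FC above 1, against 5.33% of all genes. BCL2, which protects from apoptosis, was higher as well (log2FC 0.40, edgeR adjusted p = 0.0316), but not in DESeq2 (adjusted p = 0.136), with library size alone (edgeR adjusted p = 0.108) or without replicate 1 or 2 at 4 h or replicate 1 at 8 h (edgeR adjusted p = 0.181, 0.112 and 0.109). CCND1, the more abundant D-type cyclin gene, fell from 917.0 and 868.0 CPM to 589.0 and 615.0 CPM (log2FC −0.57, standard error 0.07, edgeR adjusted p = 3.58e-06). FOXL1 and FOXM1, forkhead transcription factor genes, were at −0.70 and −0.41 (edgeR adjusted p = 0.000714 and 0.000289), and SNAI1 at −0.65 (edgeR adjusted p = 0.0328). The call of SNAI1 was lost in DESeq2 (adjusted p = 0.155), with the offsets for abundance (edgeR adjusted p = 0.11), without replicate 2 at 4 h (edgeR adjusted p = 0.385) and without replicate 1 at 8 h (edgeR adjusted p = 0.0744). FOXF1, a target in mesenchyme, had a log2FC of 0.70 on 23 to 40 reads and did not pass (edgeR adjusted p = 0.0816). MYCN had 0 reads in every library, and as for EVC2 no absence is read from this 0. CCND1 and FOXM1 are also genes of the cell cycle, so their values are not particular to Hedgehog output.

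The genes nearest to each of the 7 in pattern were taken over the 4 libraries, as the root mean square difference of centred log2-CPM among genes with a mean count of at least 100. For GLI3 these were VPS50 (0.032) and SFI1 (0.034), with 32 genes within 0.1 of its pattern. They were NCOR1 (0.006) and SGTA (0.010) for SMO, PLEKHA2 and COL7A1 (0.006 each) for SUFU, and MIR23AHG (0.016) and PPP1R9B (0.028) for HHIP. For the less abundant genes they were TMEM120A (0.051) and AKNA (0.054) for GLI2, FAM131A (0.023) and USE1 (0.025) for PTCH1, and MTX3 (0.032) and SSH3 (0.039) for GLI1. Within 0.1 there were 1601 genes for SMO, 1408 for SUFU and 293 for HHIP, out of 9395 searched. There were 246 for GLI1, 144 for PTCH1 and 49 for GLI2, out of 9396. Likeness over 4 libraries was thus shared with many genes, and with the fewest for GLI3.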

How the data were processed

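Expression was measured by RNA-Seq of polyadenylated RNA in 4 libraries, made with the TruSeq Stranded mRNA kit. The authors mapped reads to hg19 with Bowtie 1.2.0, kept reads with a single genomic position and deposited raw counts per gene, not normalized or pooled. The annotation, the counting tool and the use of strand in counting are not given in the sources used here. Unspliced mapping loses reads across splice junctions.

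From these counts, 8 h was compared with 4 h over genes that reached a CPM above 1 in 2 or more libraries, by the quasi-likelihood test of edgeR 4.0.16 (R 4.3.3), TMM factors, time as the only term and Benjamini-Hochberg adjustment over all 12559 genes. A gene was called at an adjusted p below 0.05. Limma-Voom (limma 3.58.1), DESeq2 1.42.0, other scalings and filters, an abundance correction, a replicate block and leaving out each library were alternatives. Symbols came from RefSeq (GRCh38.p14), positions and lengths from GENCODE on GRCh37. Named genes were all 7 members, at most 4 called genes with the largest change per list, genes at 0 reads, and the 2 nearest patterns per member; other list genes were named after their values were seen. The members and lists were chosen with earlier results of these data known, and 2 genes of the lists are not reported here. The replicates differed by more than counting error (chi-square per degree of freedom 2.67 at 4 h and 3.84 at 8 h).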

Additional observations from a re-analysis of the deposited data

How the results depend on the processing

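Over 83 refits of the 7 genes, 75 kept the direction and the side of the threshold. For the 6 genes not called, this means that they stayed uncalled. Of the other refits, 5 reversed the direction, 2 lost the call of GLI3 and 1 gained a call of SUFU. Of 204 refits of the 17 called pathway genes, 182 kept the direction and the call and 22 lost the call, with 0 reversals. SUFU passed with library size alone (−0.31), which made 2 genes called in place of 1, both lower, and 5 pathway genes called higher in place of 8. Over all genes, that scaling called 1698 higher in place of 2500 and 3289 lower in place of 2367. With 1 library left out, the genes called ran from 0 to 1, both in all and lower, and the log2FC from −0.89 to −0.38 for GLI3, −0.06 to 0.30 for GLI1, −0.10 to 0.42 for GLI2 and −0.19 to 0.14 for HHIP. A time left with 1 library was assumed to vary like the other. Over all genes, 3114 were called without replicate 1 at 4 h and 3141 without replicate 2 at 4 h, against 4867 with all libraries and up to 4828 without an 8 h library. Higher genes ran from 1605 to 2534 and lower genes from 1509 to 2294. DESeq2 called 1498 genes lower, in place of 2367. With the replicate number as a block, 5493 genes were called, and GLI3 had a log2FC of −0.63. It changed no call among the 7 genes. Deviations of same-numbered libraries had a correlation of 0.048 over all tested genes and 0.114 over those with a mean count of at least 100. The labels name nothing that same-numbered libraries share, so with 2 pairs the numbers were not taken to pair the libraries. GLI1 was not tested with a CPM above 2. The nearest patterns of GLI1 and PTCH1 changed in part with a prior count of 0.5. At 13 to 17 reads per library, GLI1 had the widest 95% interval of the 7 genes (−0.78 to 1.00).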
